A study of Homo sapiens with 12 samples.

Results

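The 10 signalling genes of vessel growth described here were followed across 2 uveal melanoma cell lines: the VEGF family ligands VEGFA, VEGFB, VEGFC and PGF, the PDGF ligands PDGFA, PDGFB, PDGFC and PDGFD, the secreted angiogenesis inhibitor SERPINF1, and the Notch ligand JAG1. They are 10 of the 18132 genes that the arrays name. Each gene was read from the probe set annotated to its symbol alone with the highest mean over the 12 arrays, out of 37 such probe sets, and the other probe sets of the same gene served as a check. The genes were listed by name.

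VEGF ligands bind receptor tyrosine kinases on endothelial cells. VEGFA signals mainly through KDR and drives sprouting of blood vessels, VEGFC signals through FLT4 and drives growth of lymphatic vessels, and PGF and VEGFB bind FLT1. PDGF ligands act on PDGFRA and PDGFRB of mesenchymal cells such as pericytes and fibroblasts. PDGFA and PDGFB are cleaved inside the producing cell, whereas PDGFC and PDGFD are secreted as latent proteins and activated outside it, by proteases that include the plasminogen activators PLAT and PLAU. SERPINF1, also called pigment epithelium-derived factor, is a secreted serpin that does not inhibit proteases, is abundant in the eye and restrains vessel growth. JAG1 is a membrane-bound ligand of Notch receptors.

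Expression was measured on 12 Affymetrix PrimeView arrays in 4 groups of 3: OCM1 cells overexpressing the long noncoding RNA CANT1, wild type OCM1 cells, MUM2B cells overexpressing CANT1, and wild type MUM2B cells. Both are human uveal melanoma lines, a tumour of pigment cells of the eye. The labels mention selection with puromycin for replicate 1 and medium with 10% FBS for replicates 2 and 3, so every group holds 1 array of one labelled set and 2 of the other. The controls are called wild type and no empty vector is described, so CANT1 cannot be told apart from vector or selection. Whether replicates were separate cultures is not stated, so the p-values speak of differences among arrays alone, a spread that may be technical. The small number of arrays limits the precision. A bulk signal also cannot tell fewer cells of a type apart from less RNA per cell.

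A level below is log2 of the scaled signal plus 32, differences are in log2 units with ± the standard error, and a gene passed when its limma p-value, adjusted over all genes tested, was under 0.05. One fit used all 12 arrays with a term for the labelled set, and another the 8 arrays of replicates 2 and 3. Replicate 1 has 1 array per group, so its differences carry no error and no test. The deposited table gives no detection calls, and a signal under 100 is called dim here. The added 32 understates the fold of dim genes.

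The wild type OCM1 array of replicate 1 stood apart, and every replicate 1 difference between CANT1 and wild type OCM1 cells below is taken against it. Its mean correlation with the other OCM1 arrays was 0.829, close to its mean of 0.798 with the MUM2B arrays, whereas the other 11 arrays correlated with their own line at 0.936 to 0.978. The summed signal of 7 melanocyte markers was 71549 to 76574 on the CANT1 arrays of OCM1, against 13678 on that wild type array and 71500 to 73962 on the other wild type arrays of OCM1. In MUM2B the sum was 657 to 746 in CANT1 cells and 637 to 872 in wild type cells, where 4 of the 7 markers reached a signal of 100 and MLANA, TYRP1 and S100B, defining markers of the pigment cell lineage, did not, MLANA staying at or below 55.5. Of 5 endothelial markers 4 reached a signal of 100 in MUM2B and 3 in OCM1. The endothelial cadherin CDH5 read 2598 to 4634 in CANT1 and 2385 to 3238 in wild type MUM2B cells, against 46.6 to 87.3 in OCM1. In MUM2B and OCM1, VWF read 112 to 226 and 151 to 210, TIE1 292 to 411 and 143 to 307, and PECAM1 91 to 579 and 66 to 133. TEK was dim in both. PTPRC, the defining immune marker, stayed between 14.2 and 18 on all arrays, while CD68, found in macrophages and the 1 of 4 immune markers to reach 100, read between 89.2 and 523.3. Of 5 fibroblast markers LUM read up to 1437 in OCM1 while COL1A1 stayed at or below 98.9. The 3′ to 5′ log2 ratio of ACTB, a measure of RNA quality, lay between 2.15 and 2.51 on the replicate 1 arrays, whereas replicates 2 and 3 gave 0.473 to 0.911. In OCM1 CANT1 went with 2 melanocyte markers higher and 1 lower of 7 tested on replicates 2 and 3. In MUM2B it went with CDH5 (0.72 ± 0.15, limma adjusted p = 0.00655), CD68 (0.60 ± 0.18, adjusted p = 0.0332) and the pigment cell gene PMEL (0.38 ± 0.09, adjusted p = 0.0140) higher. Of all genes, 23.3% were called in OCM1 and 25% in MUM2B. CDH5 was 1 of 4 tested endothelial markers, CD68 the 1 tested immune marker and PMEL 1 of 7 tested melanocyte markers. On replicate 1 these 3 were lower with CANT1 in MUM2B, at −0.31, −0.07 and −0.24. Among MUM2B arrays, wild type replicate 1 had the lowest mean correlation with its own line, 0.945, against 0.967 to 0.978 on the others. Every replicate 1 difference between CANT1 and wild type MUM2B cells is taken against that array. Without it, the 12-array fit called 9 of 12711 genes in MUM2B, against 0 with it. What part the marker and RNA quality differences have in the results was not tested. CASC15, the locus that CANT1 belongs to, is read by 1 probe set, at signals between 12.9 and 17.9, so the overexpressed RNA itself was not followed, and where it sits relative to the transcript is not given.

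All 10 genes passed the filter on dim genes in both fits. VEGFA, VEGFB, PGF, PDGFB, PDGFC and JAG1 had a signal of at least 100 on every array. SERPINF1 reached it on the 6 OCM1 arrays and on no MUM2B array. PDGFA reached it on the 6 MUM2B arrays and, of the OCM1 arrays, only on wild type replicate 1. VEGFC reached it on 9 arrays and PDGFD on 4, so PDGFD entered the test through OCM1, 3 of its 4 arrays being CANT1 arrays.

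**Figure D1:**
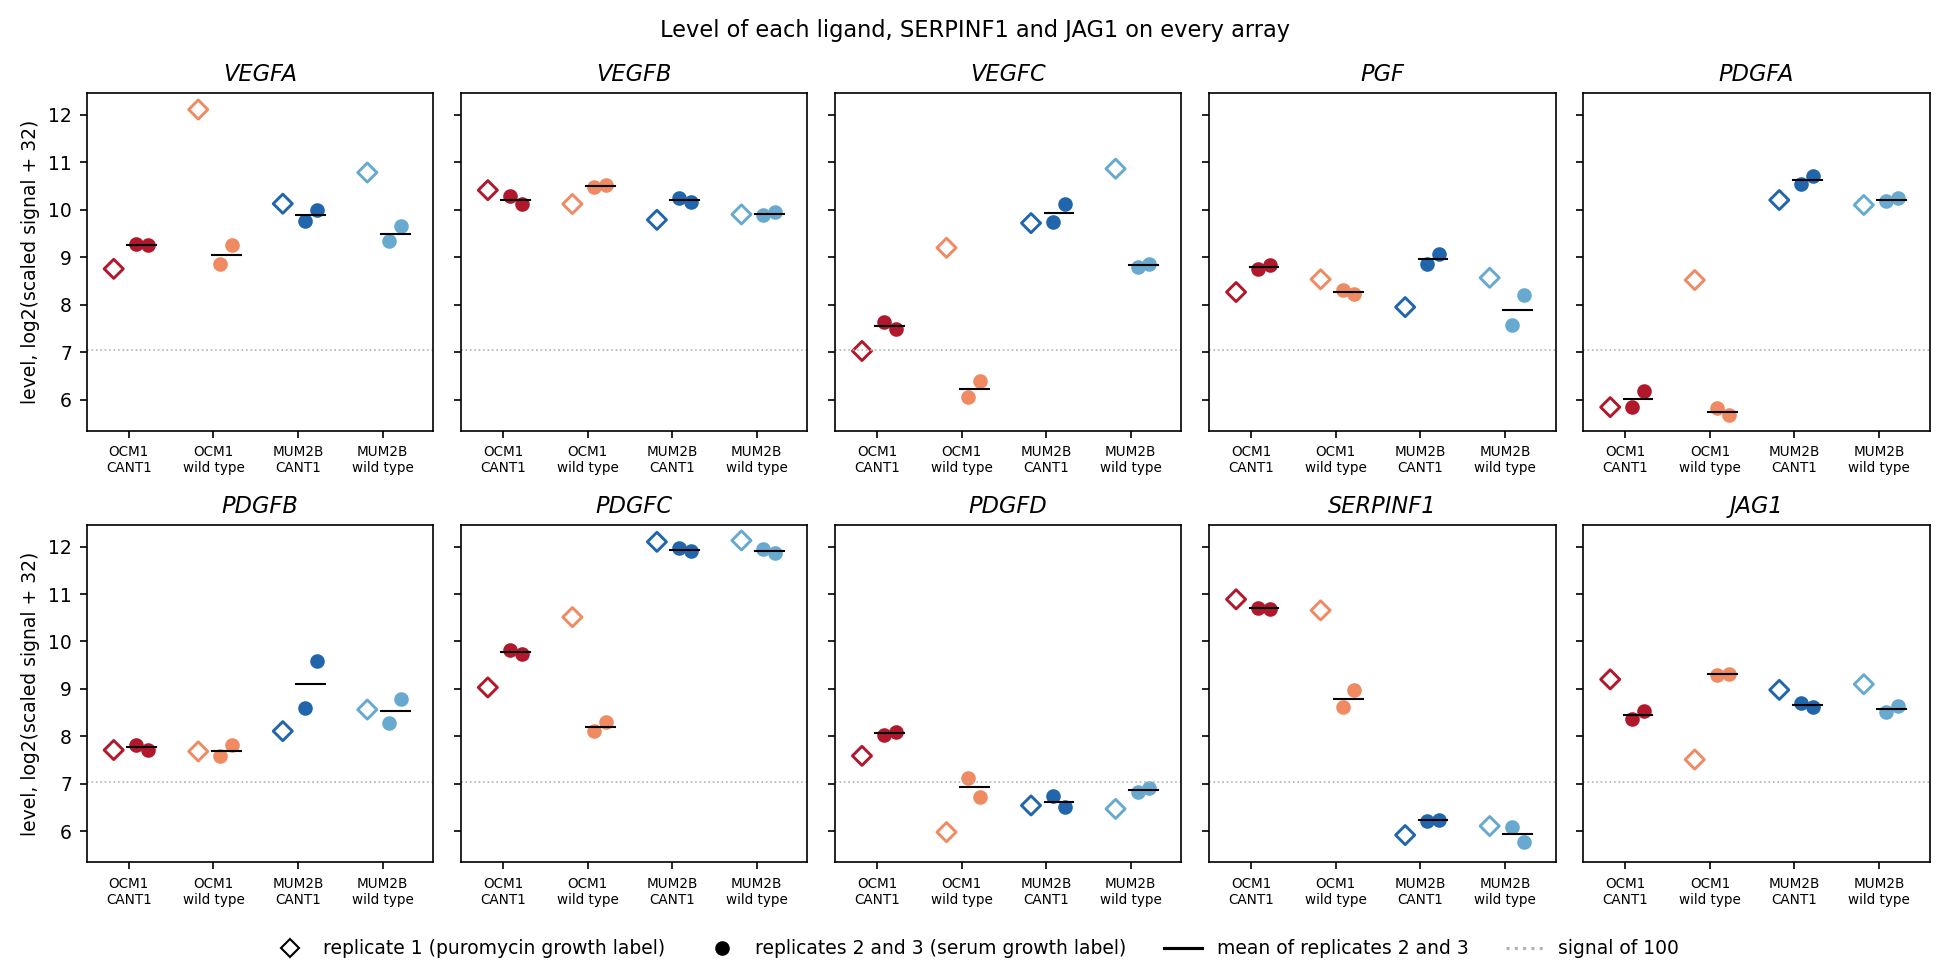
Level of each of the 10 genes, log2(scaled signal + 32), on every array in the 4 groups; open diamonds are replicate 1, filled circles replicates 2 and 3, bars their mean, and the dotted line a signal of 100. SERPINF1 is high in OCM1 only, PDGFA and PDGFC are higher in MUM2B, and the open diamond of wild type OCM1 lies away from the circles of its group for VEGFA, VEGFC, PDGFA, PDGFC, PDGFD, SERPINF1 and JAG1.

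CANT1 overexpression in OCM1 went with more SERPINF1, PDGFC, VEGFC and PDGFD and with less JAG1 on replicates 2 and 3. There limma called 7 of the 10 genes, 5 higher and 2 lower, against 23.3% of all 12101 genes tested. The median difference of the 10 was 0.40, and that of all genes 0.04. With all 12 arrays only PDGFD passed, where 0.102% of 12711 genes were called (13 genes), and the median of the 10 was 0.11. PDGFD entered that test mainly through the CANT1 arrays of OCM1, so some difference was built in. Of the 7 genes called on replicates 2 and 3, PDGFD and SERPINF1 had the same sign on replicate 1. For SERPINF1 that held for 1 of 5 probe sets. VEGFB, VEGFC, PGF, PDGFC and JAG1 had the opposite sign. Over all 3 arrays, only for PDGFD and SERPINF1 did every CANT1 array of OCM1 lie above every wild type array, and the groups overlapped for the other 8. Among all 12711 genes tested, 11.5% had groups that did not overlap, 6.46% with CANT1 higher. Without the wild type array of replicate 1, the 12-array fit called 4 of the 10 genes in OCM1, and 142 of 12711 genes (1.12%).

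In MUM2B, CANT1 went with more VEGFC and PGF and with slightly more PDGFA and VEGFB on replicates 2 and 3. Limma called these 4 of the 10 genes, where 25% of 12101 genes were called, and the median of the 10 was 0.34 against 0.00 for all genes. With all 12 arrays it called 0 of the 10 and 0 of 12711 genes (0%), 219 of which had an unadjusted p under 0.05. On replicate 1 PDGFA was higher with CANT1 as well, but only by 1 of its 4 probe sets, in a range from −0.49 to 0.10. The other 3 genes were lower. Over all 3 arrays the groups overlapped for each of the 10, where those of 4.79% of 12711 genes did not.

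Promoter sequence is shown for 3 genes that changed in OCM1 on replicates 2 and 3, the rising VEGFC and PDGFD and the falling JAG1, so that their composition can be set beside their values below, as the 250 bases before the start site (RefSeq, GRCh38.p14, all on the minus strand, printed 5′ to 3′). RefSeq entries matched 6 of the 10 genes. Capitals mark the GC box GGGCGG on either strand, a motif of the Sp1 family, where overlapping matches count separately.
VEGFC, chr4:176792923-176793172: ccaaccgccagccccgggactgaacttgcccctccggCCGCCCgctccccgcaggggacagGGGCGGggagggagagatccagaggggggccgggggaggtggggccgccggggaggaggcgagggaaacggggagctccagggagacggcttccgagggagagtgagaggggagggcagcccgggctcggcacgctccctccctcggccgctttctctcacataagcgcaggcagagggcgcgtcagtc
PDGFD, chr11:104164148-104164397: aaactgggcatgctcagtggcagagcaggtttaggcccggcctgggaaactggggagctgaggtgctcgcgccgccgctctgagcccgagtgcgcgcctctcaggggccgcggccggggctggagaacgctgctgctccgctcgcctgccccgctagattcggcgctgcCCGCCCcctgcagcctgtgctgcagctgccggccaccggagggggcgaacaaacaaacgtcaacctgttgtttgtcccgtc
JAG1, chr20:10674000-10674249: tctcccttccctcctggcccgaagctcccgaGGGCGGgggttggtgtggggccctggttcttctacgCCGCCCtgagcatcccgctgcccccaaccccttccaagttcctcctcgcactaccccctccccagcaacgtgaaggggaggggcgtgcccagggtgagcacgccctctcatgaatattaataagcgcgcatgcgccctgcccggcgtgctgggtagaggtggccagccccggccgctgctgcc
The windows of VEGFC and JAG1 held 2 GC boxes each and that of PDGFD 1, and 42.6% of 35116 promoter windows held at least 1. Their GC content was 74.0%, 69.2% and 68.4% in the order printed, against a median of 58.0% over all windows. The TATA box TATAAA (10.7% of windows) and the AP-1 motif TGANTCA (6.6%) were in none of the 3, and the core of the hypoxia response element ACGTG (18.5%) was in that of JAG1 alone, all searched on both strands.

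VEGFA, the ligand with the strongest link to tumour vessels, did not pass in either line. Its levels on replicates 1, 2 and 3 were 8.76, 9.27 and 9.26 in CANT1 and 12.11, 8.85 and 9.25 in wild type OCM1 cells. In MUM2B they were 10.13, 9.78 and 10.00 in CANT1 and 10.79, 9.34 and 9.65 in wild type cells. The highest of the 12 values belonged to the wild type OCM1 array that stood apart, and the 2 groups of each line overlapped. The difference in OCM1 was −3.36 on replicate 1 and 0.22 ± 0.15 on replicates 2 and 3 (limma adjusted p = 0.319). In MUM2B it was −0.66 and 0.39 ± 0.15 (adjusted p = 0.0729). The MUM2B value passed in 5 of 19 alternatives (adjusted p = 0.0271 to 0.0480), among them those that left out wild type OCM1 replicate 2 or 3 or wild type MUM2B replicate 3. All 10 VEGFA probe sets were higher with CANT1 in OCM1 on replicates 2 and 3, by 0.02 to 0.32, but 9 of 10 were lower on replicate 1, the lowest at −3.36.

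VEGFB, which binds FLT1, varied little between arrays. In OCM1 it read 10.42, 10.30 and 10.12 in CANT1 and 10.12, 10.49 and 10.53 in wild type cells, and in MUM2B 9.79, 10.26 and 10.17 in CANT1 and 9.90, 9.89 and 9.95 in wild type cells. On replicates 2 and 3 it fell slightly in OCM1 (−0.30 ± 0.10, limma adjusted p = 0.0438) and rose by a like amount in MUM2B (0.30 ± 0.10, adjusted p = 0.0450). Neither call was firm. The first was lost in 9 of 19 alternatives, among them each that left out 1 OCM1 array or 1 wild type MUM2B array, up to an adjusted p of 0.247 without CANT1 OCM1 replicate 3. The second was lost in 10 of 19, among them each that left out 1 MUM2B array or 1 wild type OCM1 array, up to 0.203 without wild type MUM2B replicate 2. Replicate 1 gave the opposite signs, 0.29 in OCM1 and −0.11 in MUM2B.

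VEGFC, the lymphatic growth factor, rose in both lines on replicates 2 and 3. It read 7.03, 7.63 and 7.50 in CANT1 and 9.20, 6.07 and 6.40 in wild type OCM1 cells, where replicates 2 and 3 were dim with signals of 35.1 and 52.4. In MUM2B it read 9.72, 9.75 and 10.13 in CANT1 and 10.87, 8.80 and 8.87 in wild type cells. On replicates 2 and 3 the CANT1 arrays lay above the wild type arrays in both lines, and on replicate 1 they lay below in both. The rise was 2.51-fold in OCM1 (1.33 ± 0.14, limma adjusted p = 9.40e-05) and 2.15-fold in MUM2B (1.10 ± 0.14, adjusted p = 0.000706), and it passed in all 19 alternatives in each line. The replicate 1 differences were −2.17 and −1.15. VEGFC has 1 probe set, so no other probe set could check it.

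PGF, a placental growth factor that binds FLT1, read 8.27, 8.75 and 8.84 in CANT1 and 8.54, 8.30 and 8.23 in wild type OCM1 cells. In MUM2B it read 7.95, 8.85 and 9.07 in CANT1 and 8.57, 7.58 and 8.21 in wild type cells. It too lay above wild type on replicates 2 and 3 and below it on replicate 1 in both lines. It rose 2.09-fold in MUM2B (1.06 ± 0.17, limma adjusted p = 0.00173, passing in 19 of 19 alternatives). The OCM1 rise of 0.53 ± 0.17 (adjusted p = 0.0424) was lost in 8 of 19, among them each fit that left out 1 of the 4 OCM1 arrays (adjusted p = 0.113 to 0.173). Replicate 1 gave −0.27 in OCM1 and −0.62 in MUM2B.

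Among the PDGF ligands, PDGFA was bright in MUM2B and dim on all but 1 of the OCM1 arrays. It read 5.85, 5.84 and 6.18 in CANT1 and 8.52, 5.82 and 5.67 in wild type OCM1 cells, and 10.21, 10.54 and 10.71 in CANT1 and 10.10, 10.19 and 10.25 in wild type MUM2B cells. In OCM1 5 of the 6 signals were between 19.0 and 40.3, and the sixth, 335.5, came from the wild type array that stood apart. In MUM2B PDGFA rose by 0.41 ± 0.12 on replicates 2 and 3 (limma adjusted p = 0.0311). That call was lost in 6 of 19 alternatives, among them those without CANT1 replicate 3 (adjusted p = 0.205), wild type replicate 2 (0.152) or wild type replicate 3 (0.0721) of MUM2B. Its difference in OCM1 was 0.27 ± 0.12 (adjusted p = 0.141) on replicates 2 and 3 and −2.68 on replicate 1.

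PDGFB, which recruits pericytes to new vessels, passed in neither line. Its levels were 7.71, 7.83 and 7.72 in CANT1 and 7.69, 7.59 and 7.81 in wild type OCM1 cells, and the groups overlapped. In MUM2B it read 8.11, 8.60 and 9.59 in CANT1 and 8.57, 8.29 and 8.78 in wild type cells, and 1 CANT1 array, replicate 3, lay above all others. The differences on replicates 2 and 3 were 0.07 ± 0.26 in OCM1 (limma adjusted p = 0.879) and 0.56 ± 0.26 in MUM2B (adjusted p = 0.135). Without CANT1 replicate 2 of MUM2B the MUM2B value became 1.05 (adjusted p = 0.00374), from the remaining CANT1 array alone, which is assumed to vary like the other groups.

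PDGFC, a latent ligand that PLAT can activate, rose nearly to 3 times its wild type level in OCM1 on replicates 2 and 3. It read 9.03, 9.82 and 9.75 in CANT1 and 10.51, 8.11 and 8.30 in wild type OCM1 cells, and the wild type value of replicate 1 exceeded all CANT1 values. In MUM2B the 6 arrays lay between 11.87 and 12.13, with 12.10, 11.96 and 11.91 in CANT1 and 12.13, 11.95 and 11.87 in wild type cells. The OCM1 rise on replicates 2 and 3 was 2.98-fold (1.58 ± 0.10, limma adjusted p = 1.95e-06) and passed in all 19 alternatives. All 3 probe sets showed it, at 0.72 to 1.58. On replicate 1 all 3 were lower, at −1.48 to −0.70, and the 12-array difference was 0.56 ± 0.49 (adjusted p = 0.762), which became 1.37 (adjusted p = 0.0247) without wild type replicate 1. In MUM2B the difference was 0.03 ± 0.10 (adjusted p = 0.882).

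PDGFD, the other latent ligand and a ligand of PDGFRB, was the gene of the 10 that rose in OCM1 with all 12 arrays. It read 7.59, 8.03 and 8.10 in CANT1 and 5.99, 7.13 and 6.73 in wild type OCM1 cells, so that the 3 CANT1 arrays lay above the 3 wild type arrays. In signal units these were 160.9, 229.9 and 242.2 against 31.4, 108.3 and 74.0, with 2 of the wild type values dim. In MUM2B all 6 values were dim, with levels of 6.55, 6.74 and 6.51 in CANT1 and 6.47, 6.83 and 6.91 in wild type cells. The OCM1 rise was 1.29 ± 0.18 over 12 arrays (limma adjusted p = 0.0419), 1.61 on replicate 1, and 2.20-fold on replicates 2 and 3 (1.14 ± 0.13, adjusted p = 0.000177). Over 24 alternatives the 12-array difference of PDGFD was 0.78 to 1.72, and its call was lost in 14 of them, 8 of which left out 1 array: any CANT1 array or wild type replicate 3 of OCM1, or replicate 2 or 3 of either MUM2B group. The largest adjusted p was 0.255, without CANT1 replicate 3 of OCM1. The call on replicates 2 and 3 passed in all 18 alternatives that tested it. PDGFD passed the filter on dim genes mainly through the CANT1 arrays of OCM1, so some difference was built into its being tested. Its calls in OCM1 are therefore given as a description. With no filter it passed in both fits. All 3 PDGFD probe sets were higher in both sets, by 0.31 to 1.14 on replicates 2 and 3 and 0.37 to 1.61 on replicate 1. The replicate 1 values are set against the wild type array that stood apart, which gave the PDGFD signal of 31.4. In MUM2B PDGFD stood at −0.25 ± 0.13 (adjusted p = 0.207).

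SERPINF1, the angiogenesis inhibitor, rose 3.73-fold in OCM1 on replicates 2 and 3. It read 10.89, 10.72 and 10.68 in CANT1 and 10.66, 8.62 and 8.97 in wild type OCM1 cells, so that all 3 CANT1 arrays lay above all wild type arrays, by a narrow margin over wild type replicate 1. In MUM2B it was dim, with 5.92, 6.22 and 6.24 in CANT1 and 6.11, 6.10 and 5.78 in wild type cells. The OCM1 difference was 1.90 ± 0.13 on replicates 2 and 3 (limma adjusted p = 4.99e-06, passing in 19 of 19 alternatives), 0.23 on replicate 1 and 1.35 ± 0.38 over 12 arrays (adjusted p = 0.270). Without wild type replicate 1 the 12-array value became 1.96 (adjusted p = 0.00134). All 5 probe sets gave 1.68 to 1.95 on replicates 2 and 3, whereas on replicate 1 they ranged from −0.29 to 0.23 and 1 of 5 was above 0. The MUM2B difference was 0.29 ± 0.13 (adjusted p = 0.136).

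JAG1, the Notch ligand, fell in OCM1 on replicates 2 and 3. It read 9.20, 8.37 and 8.54 in CANT1 and 7.51, 9.29 and 9.33 in wild type OCM1 cells, and 8.98, 8.71 and 8.63 in CANT1 and 9.10, 8.52 and 8.64 in wild type MUM2B cells. The wild type OCM1 group held both the 2 highest values and the lowest value of the 12, the lowest on the array that stood apart. On replicates 2 and 3 JAG1 fell to 0.55 times its wild type level (−0.85 ± 0.10, limma adjusted p = 0.000172, passing in 19 of 19 alternatives), and all 6 probe sets were lower, at −0.85 to −0.19. On replicate 1 the difference was 1.69, with 5 of 6 probe sets higher, and over 12 arrays −0.01 ± 0.45 (adjusted p = 0.998). Without wild type replicate 1 the 12-array value became −0.78 (adjusted p = 0.0297). In MUM2B the difference was 0.09 ± 0.10 (adjusted p = 0.572).

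**Figure D2:**
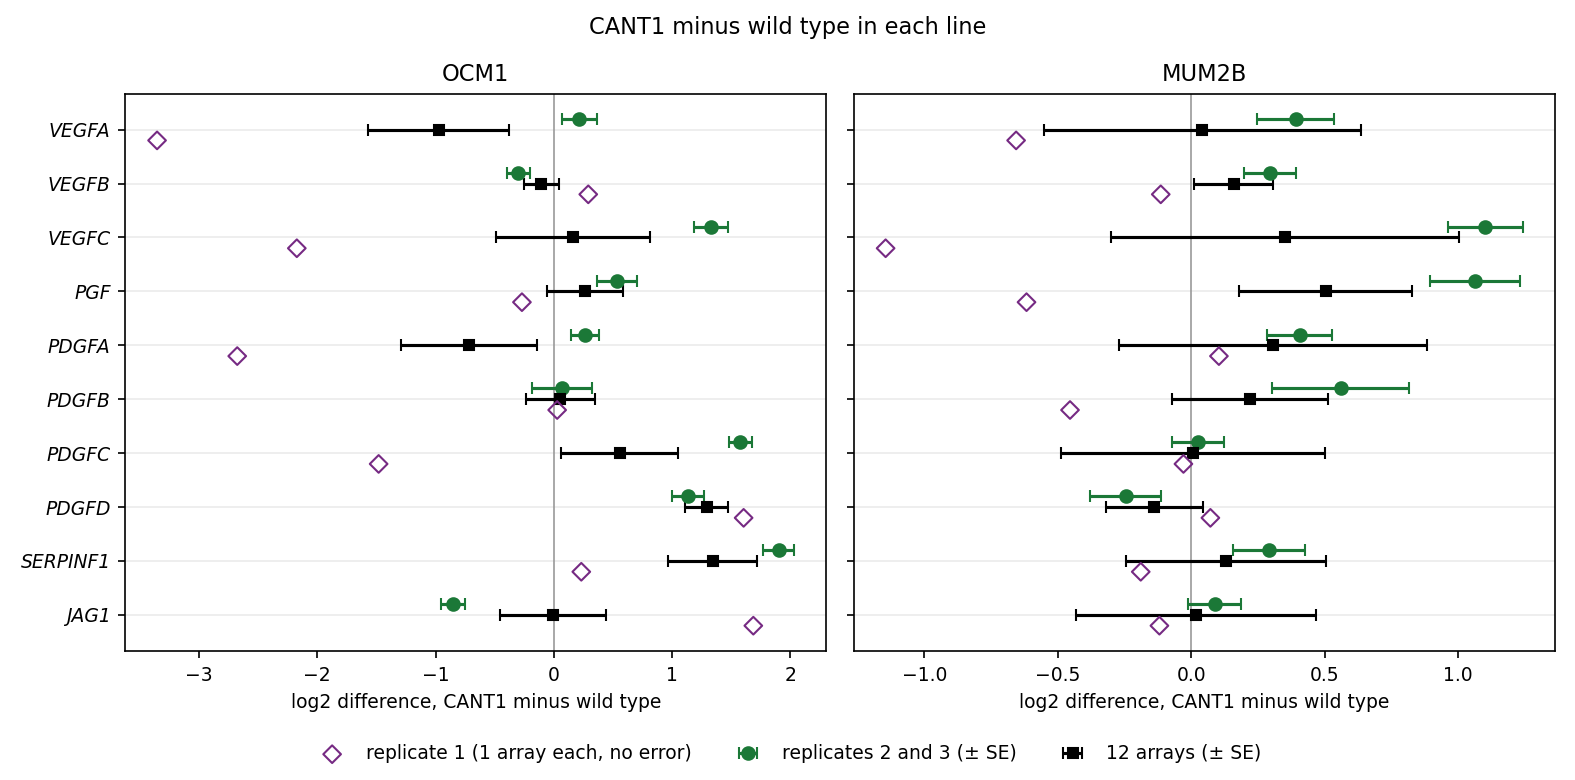
Log2 difference, CANT1 minus wild type, of the 10 genes in OCM1 (left) and MUM2B (right), for replicate 1 (open diamonds, 1 array each), replicates 2 and 3 (green circles ± SE) and 12 arrays (black squares ± SE); the horizontal scales differ. In OCM1 PDGFD is above 0 by all 3 measures, and PDGFC, VEGFC and JAG1 have opposite signs on replicate 1 and on replicates 2 and 3.

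**Figure D3:**
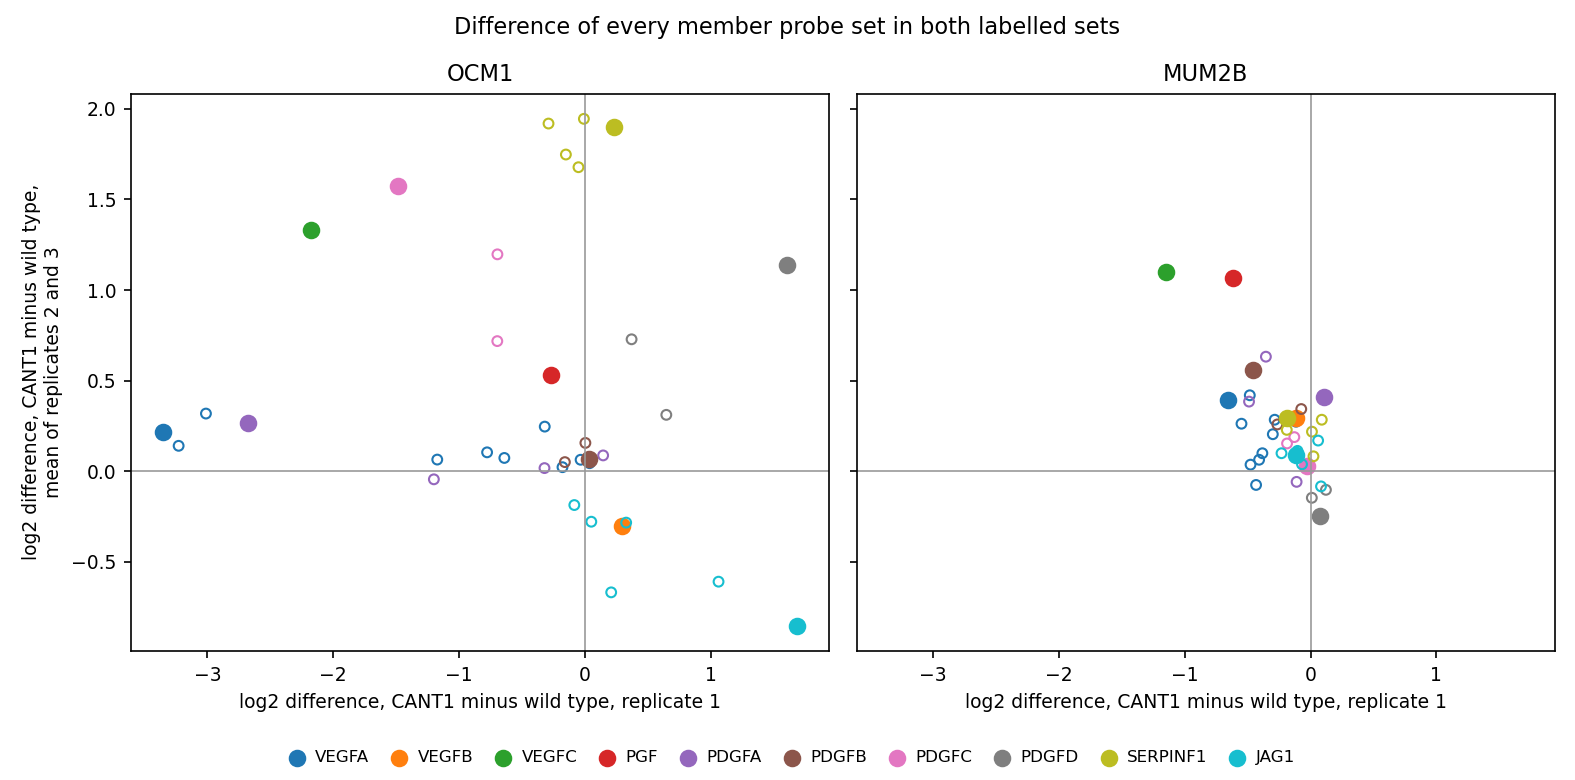
Log2 difference, CANT1 minus wild type, on replicate 1 (horizontal) and on replicates 2 and 3 (vertical) for the 37 probe sets of the 10 genes in OCM1 (left) and MUM2B (right); filled points are the probe sets used. The 5 SERPINF1 probe sets lie together near 0 on replicate 1 and between 1.68 and 1.95 on replicates 2 and 3, and the 3 PDGFD probe sets lie above 0 on both axes in OCM1.

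The 2 lines differed in how 5 of the 10 genes responded on replicates 2 and 3, by limma's test of the OCM1 difference minus the MUM2B difference, which called 21.8% of all genes. The response was greater in OCM1 for PDGFC (1.55 ± 0.14, adjusted p = 6.73e-05), and by value for SERPINF1 (1.61 ± 0.19) and PDGFD (1.38 ± 0.19). SERPINF1 and PDGFD passed the filter on dim genes through OCM1, so some difference was built into their being tested. They are counted among the 5, but their values are a description with no test. Their MUM2B signals were all dim, at 22.9 to 43.6 and 56.9 to 88.2, so a response in MUM2B would be understated. It was lower in OCM1 for JAG1 (−0.94 ± 0.14, adjusted p = 0.00135) and VEGFB (−0.60 ± 0.14, adjusted p = 0.0110). VEGFC rose in both lines, with a difference between the responses of 0.23 ± 0.20 (adjusted p = 0.464), and PGF stood at −0.53 ± 0.24 (adjusted p = 0.137). The PGF value became −0.85 (adjusted p = 0.00774) without wild type MUM2B replicate 3. With all 12 arrays the test called 0 of the 10, where 0.0472% of genes were called and 634 genes had an unadjusted p under 0.05. Without wild type OCM1 replicate 1 it called 35 of 12711 genes (0.275%), with SERPINF1 among them at 1.83. On replicate 1 the same quantity was 0.42 for SERPINF1, 1.53 for PDGFD, −1.45 for PDGFC, 1.81 for JAG1 and 0.41 for VEGFB. By the probe sets used, SERPINF1 and PDGFD kept the sign. Of the 5 SERPINF1 probe sets 2 were above 0 there, in a range from −0.30 to 0.42, and all 3 of PDGFD were.

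Several of the 10 genes set the lines apart whether or not CANT1 was overexpressed. SERPINF1 and PDGFA, and PDGFD in CANT1 cells, are counted among them although they passed the filter on dim genes mainly through the brighter line. The counts below therefore follow in part from the filter. In CANT1 cells, OCM1 had less PDGFA, VEGFC, PDGFC and PDGFB and more SERPINF1 and PDGFD than MUM2B with all 12 arrays, 6 of the 10 genes where 37.2% of all genes were called. In wild type cells, OCM1 had less PDGFA, PDGFC and VEGFC and more SERPINF1 and VEGFB, 5 of the 10 where 32.9% were called. On replicates 2 and 3 the counts were 7 in CANT1 cells and 8 in wild type cells, where 66.3% and 64.6% of genes were called, so the share among the 10 was near that of all genes. The median over all genes of the OCM1 minus MUM2B difference in CANT1 cells was 0.12 on replicates 2 and 3, between 0.05 and 0.12 under the other scalings and offsets tried, and at most 0.14 with 1 array left out.

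SERPINF1 averaged 10.76 ± 0.11 in CANT1 and 9.42 ± 1.09 in wild type OCM1 cells, against 6.13 ± 0.18 and 6.0 ± 0.19 in MUM2B (SD, n = 3 each). The OCM1 minus MUM2B difference of SERPINF1 was 4.47 in CANT1 and 2.86 in wild type cells on replicates 2 and 3, and its MUM2B signals were all dim, between 22.9 and 43.6. PDGFA averaged 5.96 ± 0.19 and 6.67 ± 1.60 in CANT1 and wild type OCM1 cells, against 10.49 ± 0.25 and 10.18 ± 0.07 in MUM2B. The OCM1 minus MUM2B difference of PDGFA was −4.61 in CANT1 and −4.47 in wild type cells on replicates 2 and 3, its OCM1 signals there being dim. The dimmest of its 4 probe sets, at a signal of at most 41.9, gave 0.13 and −0.01, and the other 3 were lower in OCM1. SERPINF1 passed the filter through OCM1 alone, and PDGFA through MUM2B and 1 OCM1 array, so some difference between the lines was built into their being tested. Their line differences are therefore given as a description with no test, and their size depends on the 32 added to the dim signals.

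PDGFC was lower in OCM1 by all 3 probe sets and in both sets of arrays. Its difference on replicates 2 and 3 was −2.16 ± 0.10 in CANT1 cells (limma adjusted p = 3.57e-09) and −3.71 ± 0.10 in wild type cells (adjusted p = 3.58e-11). VEGFC was lower in OCM1 as well, at −2.38 ± 0.14 and −2.60 ± 0.14 (adjusted p = 3.72e-08 and 1.59e-08). The 12-array VEGFC calls were less firm, lost in 3 of 25 alternatives in CANT1 cells and 4 of 25 in wild type cells by leaving out 1 array each time (CANT1 replicate 1 of OCM1, CANT1 replicate 2 or 3 of MUM2B, and, among wild type arrays, replicate 2 or 3 of OCM1 or replicate 1 or 3 of MUM2B). The largest adjusted p was 0.0608 in CANT1 and 0.0901 in wild type cells. PDGFB was lower at −1.02 ± 0.29 over 12 arrays in CANT1 cells (adjusted p = 0.0216), which became −0.62 (adjusted p = 0.0390) without CANT1 replicate 3 of MUM2B. That call was lost without CANT1 replicate 2 or 3 of OCM1 and with the mean of its probe sets (adjusted p = 0.0622 to 0.0727). In wild type cells PDGFB stood at −0.85 ± 0.29, at the threshold and not called (adjusted p just over 0.05), and it passed in 13 alternatives. On replicates 2 and 3 PDGFB was lower in OCM1 in CANT1 cells (−1.32 ± 0.26, adjusted p = 0.000717) and in wild type cells (−0.83 ± 0.26, adjusted p = 0.0132). Its other, dimmer probe sets gave less there, −0.444 and −0.185 in CANT1 cells and −0.257 and 0.023 in wild type cells. The wild type call was lost without wild type replicate 2 of OCM1 (−0.72, adjusted p = 0.0820) or replicate 3 of MUM2B (−0.58, adjusted p = 0.116), and the CANT1 value became −0.83 (adjusted p = 0.00308) without CANT1 replicate 3 of MUM2B.

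PDGFD was higher in OCM1 among CANT1 cells, by 1.31 ± 0.18 over 12 arrays. It passed the filter on dim genes mainly through the CANT1 arrays of OCM1, so that difference is a description with no test. Among wild type cells PDGFD stood at −0.12 ± 0.18 (limma adjusted p = 0.671), and they were dim in both lines on 5 of 6 arrays. JAG1 had the reverse arrangement on replicates 2 and 3, at −0.21 ± 0.10 among CANT1 cells (adjusted p = 0.0776) and 0.73 ± 0.10 among wild type cells (adjusted p = 4.59e-05). Its wild type value over 12 arrays was −0.04 ± 0.45 (adjusted p = 0.956), and 0.73 (adjusted p = 0.00144) without wild type OCM1 replicate 1. VEGFB was higher in wild type OCM1 cells by 0.47 ± 0.15 over 12 arrays (adjusted p = 0.0362), a call lost in 10 of 25 alternatives, 6 of which left out 1 array of replicates 2 and 3 (adjusted p up to 0.119, without wild type OCM1 replicate 3). VEGFA was lower in OCM1 on replicates 2 and 3, at −0.62 ± 0.15 in CANT1 and −0.44 ± 0.15 in wild type cells (adjusted p = 0.00286 and 0.0192), and the wild type call was lost without wild type replicate 2 of OCM1 or replicate 3 of MUM2B (adjusted p = 0.204 and 0.167). On replicates 2 and 3 the 10 VEGFA probe sets gave −0.76 to 0.09 in CANT1 cells, 2 of them above 0. In wild type cells they gave −0.72 to −0.01. The VEGFA difference was −1.37 in CANT1 and 1.33 in wild type cells on replicate 1, and −0.87 ± 0.59 and 0.15 ± 0.59 over 12 arrays (adjusted p = 0.287 and 0.885). PGF passed between the lines in neither fit. Among wild type cells on replicates 2 and 3 it stood at 0.37 ± 0.17 (adjusted p = 0.0768) and passed in 2 of 19 alternatives, 1 of them without wild type MUM2B replicate 3, where it reached 0.69 (adjusted p = 0.000913).

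**Figure D4:**
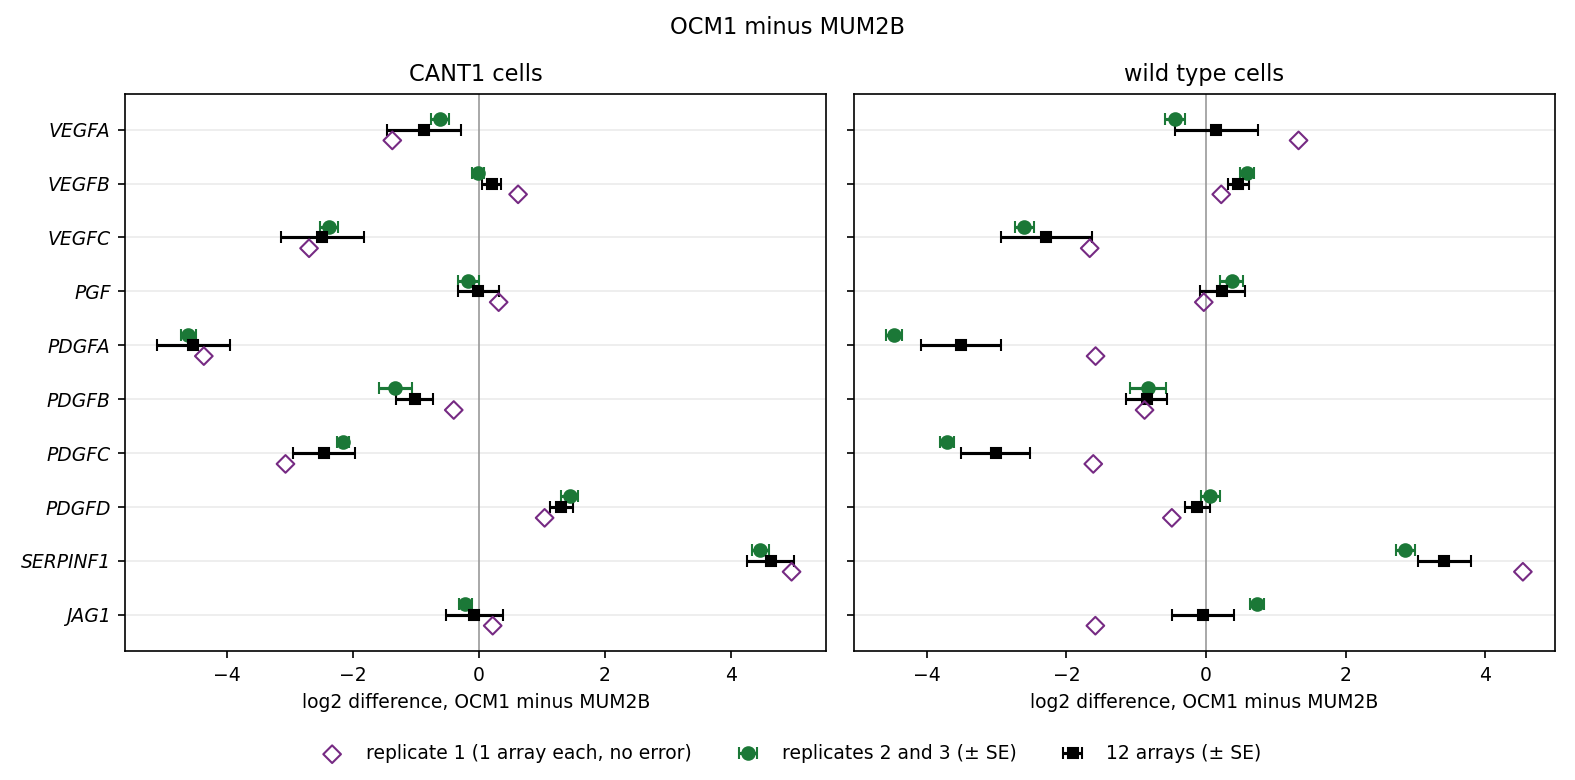
Log2 difference, OCM1 minus MUM2B, of the 10 genes in CANT1 cells (left) and wild type cells (right), for replicate 1 (open diamonds, 1 array each), replicates 2 and 3 (green circles ± SE) and 12 arrays (black squares ± SE). PDGFA, PDGFC and VEGFC are below 0 and SERPINF1 above 0 by all 3 measures in both panels, and PDGFD is above 0 by all 3 in CANT1 cells only.

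Receptors of the VEGF and PDGF ligands passed no test in OCM1. Of 4 tested VEGF receptors and co-receptors, 0 passed in OCM1 and 2 rose in MUM2B on replicates 2 and 3, at medians of 0.22 and 0.34. They were the VEGFA receptor KDR (0.42 ± 0.10, limma adjusted p = 0.0112) and the co-receptor NRP2, which binds VEGFC (1.12 ± 0.14, adjusted p = 0.000706). On replicate 1 both were lower with CANT1 in MUM2B (−0.30 and −0.80). NRP1, the other co-receptor, and FLT4, the VEGFC receptor, passed in neither line (0.23 ± 0.09 and −0.09 ± 0.11 in OCM1, 0.25 ± 0.09 and −0.07 ± 0.11 in MUM2B). In OCM1 NRP1 was dim except on the wild type array that stood apart (438.6). FLT1 was too dim to test. Of the PDGF receptor list, PDGFRB and the receptor-like gene PDGFRL were tested and 0 passed in either line, and PDGFRA was too dim. PDGFRB itself lay near the dim limit, at signals of 85.6 to 149.3. On replicates 2 and 3, 23.3% of all genes were called in OCM1 and 25% in MUM2B, the shares to set beside the counts of these lists and those below. With all 12 arrays no gene of these lists, or of any pathway list below, passed in either line.

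Proteases that process the ligands included 9 tested genes, of which 0 passed in OCM1 and 1 rose and 1 fell in MUM2B on replicates 2 and 3, at medians of 0.11 and 0.30. PLAT, an activator of latent PDGFC, rose by 2.09 ± 0.23 in MUM2B (limma adjusted p = 0.000281) and was at −1.76 on replicate 1. The proprotein convertase PCSK7 fell (−0.46 ± 0.10, adjusted p = 0.00704), and replicate 1 gave 0.27. PLAU, an activator of latent PDGFD, was at 0.12 ± 0.12 in OCM1 and 0.34 ± 0.12 in MUM2B (adjusted p = 0.507 and 0.0546). In OCM1 PLAU was dim except on the wild type array that stood apart (154.5), so its OCM1 difference is one of dim signals. PNPLA2, the tested receptor of SERPINF1, was at 0.26 ± 0.12 and 0.35 ± 0.12 (adjusted p = 0.132 and 0.0522). RPSA, VEGFD and CA9 were not analysed here.

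Notch receptors and targets gave calls in both directions in OCM1, where 23.3% of all genes were called on replicates 2 and 3 (25% in MUM2B). Of 7 tested Notch ligands and receptors other than JAG1, NOTCH2 rose (0.41 ± 0.13, limma adjusted p = 0.0479) and NOTCH1 fell (−0.71 ± 0.14, adjusted p = 0.00448) on replicates 2 and 3, at a list median of 0.03. NOTCH1 was lower on replicate 1 too (−1.97), while NOTCH2 was not higher there (−0.48). The wild type OCM1 level of NOTCH1 was 8.18 on the array that stood apart, against 6.80 and 7.23 on replicates 2 and 3. Of 6 Notch targets 2 rose, HEY2 (1.52 ± 0.11, adjusted p = 4.77e-06) and HEY1 (0.94 ± 0.16, adjusted p = 0.00206), and HES1 fell (−0.56 ± 0.16, adjusted p = 0.0249), at a median of 0.14. On replicate 1 these read −1.10, −2.77 and −0.53, so HES1 kept its sign. In MUM2B NOTCH2 (0.51 ± 0.13, adjusted p = 0.0172) and HEY1 (1.29 ± 0.16, adjusted p = 0.000667) rose, at list medians of 0.02 and 0.23, and both were lower on replicate 1 (−0.82 and −0.72).

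Hypoxia genes, which govern VEGFA in many tissues, are set beside the 23.3% of all genes called in OCM1 and 25% in MUM2B. Of 6 tested regulators, VHL, which targets HIF proteins for degradation, rose in OCM1 (0.72 ± 0.12, limma adjusted p = 0.00157) and in MUM2B (0.36 ± 0.12, adjusted p = 0.0459) on replicates 2 and 3, and EPAS1, a HIF alpha subunit, in OCM1 (0.33 ± 0.10, adjusted p = 0.0377; 0.10 on replicate 1). The list medians were 0.16 and 0.10. VHL was lower with CANT1 on replicate 1 in both lines (−1.62 and −0.49). Of 9 HIF targets, ADM, the vasodilator adrenomedullin, rose in OCM1 (0.70 ± 0.15, adjusted p = 0.00745) and the glycolytic PGK1 fell (−0.35 ± 0.09, adjusted p = 0.0134), at a median of −0.09. In MUM2B 3 rose at a median of 0.22: NDRG1 (1.15 ± 0.16, adjusted p = 0.000871), ADM (0.64 ± 0.15, adjusted p = 0.0120) and the histone demethylase KDM3A (0.50 ± 0.12, adjusted p = 0.0102). ADM was higher with CANT1 on replicate 1 in OCM1 (2.24) and lower in MUM2B (−1.72). PGK1 was higher on replicate 1 in OCM1 (0.92), and NDRG1 and KDM3A were lower on replicate 1 in MUM2B (−0.87 and −0.47).

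Other ligands and inhibitors of vessel growth numbered 5 tested genes on replicates 2 and 3, where 23.3% of all genes were called in OCM1 and 25% in MUM2B. TIMP3, a matrix-bound inhibitor that also blocks VEGFA binding to KDR, rose in OCM1 (0.47 ± 0.12, limma adjusted p = 0.0147) and was higher on replicate 1 too (2.29), at a list median of 0.15. The wild type OCM1 level of TIMP3 was 8.29 on the array that stood apart, against 10.27 and 10.34 on replicates 2 and 3. In MUM2B the inhibitor THBS1 (−0.69 ± 0.13, adjusted p = 0.00419) and the growth factor FGF2 (−0.41 ± 0.13, adjusted p = 0.0384) fell, at a median of −0.08. THBS1 was not lower on replicate 1 (0.44), and FGF2 was (−0.09). ANGPT1, a ligand of the endothelial receptor TEK, passed in neither line (0.22 ± 0.14 in OCM1 and −0.08 ± 0.14 in MUM2B).

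The genes most like each of the 10 in pattern were found by Pearson correlation of levels over the 12 arrays, centred within each labelled set. They are a description over arrays that share a line, with no test. PDGFA was closest to LDAH (0.998) and NRP1 (0.997), and NRP1, the co-receptor, likewise read 8.88 on wild type OCM1 replicate 1 against 5.65 to 5.94 on the other OCM1 arrays. PDGFC was closest to MECOM (0.997) and TSPAN5 (0.992). SERPINF1 was closest to TESC (0.992) and RBPMS2 (0.992). In these 3 patterns the lines lie apart on replicates 2 and 3. VEGFA was closest to ALG13 (0.989) and GKAP1 (0.974). VEGFC was closest to PLAG1 (0.988) and ANTXR2 (0.982), and JAG1 to MAD1L1 (0.981) and ARHGAP24 (0.965). The wild type OCM1 array of replicate 1 was the highest VEGFA and the lowest JAG1 value of the 12. PDGFD was closest to NPTN (0.953) and FSTL5 (0.950), and PGF to DIXDC1 (0.950) and PHF21A (0.916). VEGFB was closest to SLC75A1 (0.922) and DENND2C (0.916), and PDGFB to RSKR (0.944) and FMNL1 (0.934).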

How the data were processed

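RNA of 12 samples was measured on Affymetrix PrimeView arrays, and the authors deposited 1 table of log2 values for 49395 probe sets, made with MAS5 per the submitters' processing notes. The scaling behind these values is not given in the sources used here. Each log2 value was turned back into a signal, every array was scaled to a trimmed mean of 500 (2% left out at each end), 32 was added and log2 taken again. Probe sets naming 1 gene numbered 44988, and the brightest on average stood for each of 18132 genes. A gene was kept if its signal reached 100 on 3 or more arrays, and kept genes were tested with limma 3.58.1 (lmFit and eBayes, R 4.3.3), with Benjamini-Hochberg adjustment at 0.05, on 12 arrays (12711 genes, 7 residual degrees of freedom) and on replicates 2 and 3 (12101 genes, 4 degrees of freedom), after a check on simulated data. Besides all 10 genes, up to 4 genes per pathway list, those with the smallest p, and the 2 most correlated genes per member were named. CDH5, VWF, TIE1, PECAM1, TEK, CD68, PTPRC, MLANA, TYRP1, S100B, PMEL, LUM and COL1A1 were named from the marker lists after their values were seen. The members, lists and rules were chosen with earlier results of these data known. Alternatives covered scaling, offset, filter, replicate block, arrays fitted, variance trend, array weights, set term, probe set rule and each array left out.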

Additional observations from a re-analysis of the deposited data

Results flagged for a closer look

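Responses to CANT1 differed between the lines for 5 of the 10 genes, by limma's test of the OCM1 difference minus the MUM2B difference on replicates 2 and 3, which called 21.8% of all genes. The values were 1.61 for SERPINF1, 1.55 for PDGFC, 1.38 for PDGFD, −0.94 for JAG1 and −0.60 for VEGFB. SERPINF1 and PDGFD were dim on every MUM2B array and passed the filter through OCM1, so a response in MUM2B would be understated. Some difference was built into their being tested, so their values are a description with no test. The 5 calls passed in every alternative that tested them on replicates 2 and 3, and 0 of them passed with all 12 arrays.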

How the results depend on the processing

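Of 2170 values of the members under alternatives, 1978 kept their sign and side of the threshold. With the sign kept, 71 lost the threshold and 44 gained it. The sign changed in 74 values that passed neither before nor after. It also changed in 3, called reversed here, that passed under the alternative. The reversed values all concern OCM1 minus MUM2B wild type cells over 12 arrays: VEGFA became −0.49 (limma adjusted p = 0.0221) with array weights, and JAG1 0.67 (0.000143) with array weights and 0.73 (0.00144) without OCM1 wild type replicate 1, in a range from −0.36 to 0.73 over the arrays left out. No called member changed sign. With array weights, which did not converge, the 12-array fit called 7 members in OCM1, 2 in MUM2B, 5 for the difference between responses and 8 between wild type lines. The lowest weights were 0.039 for OCM1 wild type replicate 1 and 0.078 for MUM2B wild type replicate 1. The members called in OCM1 over 12 arrays fell to 0 with quantile normalization, deposited values and replicate block. They also fell to 0 with only the arrays compared, no set term and the mean of probe sets. The stricter filter gave 0 as well, but it removed PDGFD, the gene called, so that is not a lost call. Members called in MUM2B on replicates 2 and 3 were 2 with quantile normalization, deposited values and an offset of 16. Leaving out 1 array at a time gave, over 12 arrays, 0 to 4 members in OCM1, 0 in MUM2B, 0 to 1 for the difference, 3 to 7 between wild type and 5 to 7 between CANT1 lines. On replicates 2 and 3 it gave 5 to 7, 2 to 4, 5 to 6, 6 to 8 and 7 members. Over all genes on 12 arrays, array weights gave 3704 calls in OCM1 (13 otherwise), 2389 in MUM2B (0), 2896 for the difference (6), 8793 between wild type (4185) and 8724 between CANT1 lines (4723), and leaving out 1 array gave 6 to 142, 0 to 9 and 2 to 35 for the first 3. Only the arrays compared gave 7290 between CANT1 lines and 0 in OCM1, and the other filters, the set term and the block moved the OCM1 count between 5 and 23. Within replicates 2 and 3, 1 array left out gave as few as 1337 in OCM1 (2815), 1019 in MUM2B (3028) and 1701 for the difference (2637). Testing all probe sets raised each of these counts except that of MUM2B over 12 arrays (0), as more rows were tested. Same-numbered arrays deviated together in 3 of 6 pairs of groups (r from −0.14 to 0.22), so the numbers are not taken to pair the samples. With the replicate block, members called over 12 arrays were 0 in OCM1, 0 in MUM2B, 0 for the difference, 5 between wild type and 6 between CANT1 lines, and on replicates 2 and 3 they were 7, 5, 5, 9 and 7, the calls gained being VEGFA in MUM2B (0.39, limma adjusted p = 0.0271) and PGF between wild type lines (0.37, adjusted p = 0.0473). No detection calls are given, so precision near a signal of 100 is not known.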
